A study of Homo sapiens with 3 samples.

Results

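The genes examined were 55 human genes of DNA replication and deoxynucleotide synthesis, given as a fixed list of symbols, out of 19974 protein-coding genes on chromosomes 1 to 22 and X; all 55 matched a gene symbol. They were followed in A2780 cells, an established line from an ovarian carcinoma, by CUT&Tag. This assay brings a transposase to chromatin bound by an antibody and sequences the DNA cut beside it. The antibody was against acetylated lysine 27 of histone H3 (H3K27ac), which is found at active promoters and enhancers. There were 3 libraries, each the only one of its group, all from A2780 cells grown in DMEM with serum and thawed from frozen stocks before the assay. BPP was H3K27ac after treatment with a peptide of that name, described in the series design as a competitor for the BIN2 phosphorylation site. CTR was H3K27ac in control cells, and the sources used here do not say what they received. IgG was a background library made with a non-specific antibody. Genotype, peptide dose and treatment time are not stated there either.

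The deposited files hold called peaks, with no read counts. On the chromosomes used there were 17841 BPP, 14836 CTR and 7701 IgG peaks, with median widths of 457 to 494 bp. Sequencing depth was unknown. Each peak carries a fold, the authors' enrichment over a background that is not described, and a −log10 q, the authors' measure of how strongly the peak passed the caller. Both are used only to describe and rank peaks inside a list, and a fold in BPP set beside a fold in CTR is not read as a change. A peak missing from a list can lie just below the threshold of the caller. With 1 library per group no test between conditions was possible, and no difference below has a replicate check. Of the ovarian carcinoma and epithelial markers checked, KRT8 and KRT18 had peaks at a gene end in both H3K27ac lists and MSLN in BPP. At KRT8 the strongest peaks lay in different places, chr12:52896256-52896630 in BPP and chr12:52949527-52949878 in CTR. The CTR peak was also within 1 kb of an end of KRT18. The other 14 of 17, among them PAX8, WT1, MUC16 and EPCAM, had none in either. Of 8 mesenchymal markers VIM and ZEB1 had one in both, and none of 6 immune markers had one.

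A cell copies its genome once per cycle in ordered steps. The origin recognition complex, with CDC6 and CDT1, loads the MCM2 to MCM7 ring on DNA as an inactive helicase. Kinases and the CDC45 and GINS factors then turn it into the active helicase, and polymerases alpha, delta and epsilon copy the strands with the help of the PCNA clamp. Thymidylate synthase, ribonucleotide reductase and thymidine kinase supply the deoxynucleotides. Many of these genes are transcribed as cells approach S phase, under E2F transcription factors.

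A gene-end peak is a peak that overlaps, by at least 1 bp, a window of 1 kb on either side of either end of the gene. Of the 55 replication genes, 28 had such a peak in BPP (50.9%, 95% Wilson interval 38.1 to 63.6) and 37 in CTR (67.3%, 54.1 to 78.2), where the share over all protein-coding genes was 30.6% in BPP and 31.2% in CTR. In both lists there were 23 of the 55 (41.8%, 29.7 to 54.97; all genes 23.6%). Only the BPP list held a peak for 5 (9.09%, 3.95 to 19.6; all genes 7.03%), and only the CTR list for 14 (25.5%, 15.8 to 38.3; all genes 7.57%). So 14 of the 19 replication genes marked in a single list were on the CTR side (73.7%, 51.2 to 88.2), against 51.9% of the 2918 such protein-coding genes. The BPP list is the longer of the pair. In IgG 1 gene, RPA2, had a gene-end peak (1.82%, 0.322 to 9.61; all genes 2.13%). The intervals cover counting error only, and the genes of the list were not drawn at random.

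**Figure D1:**
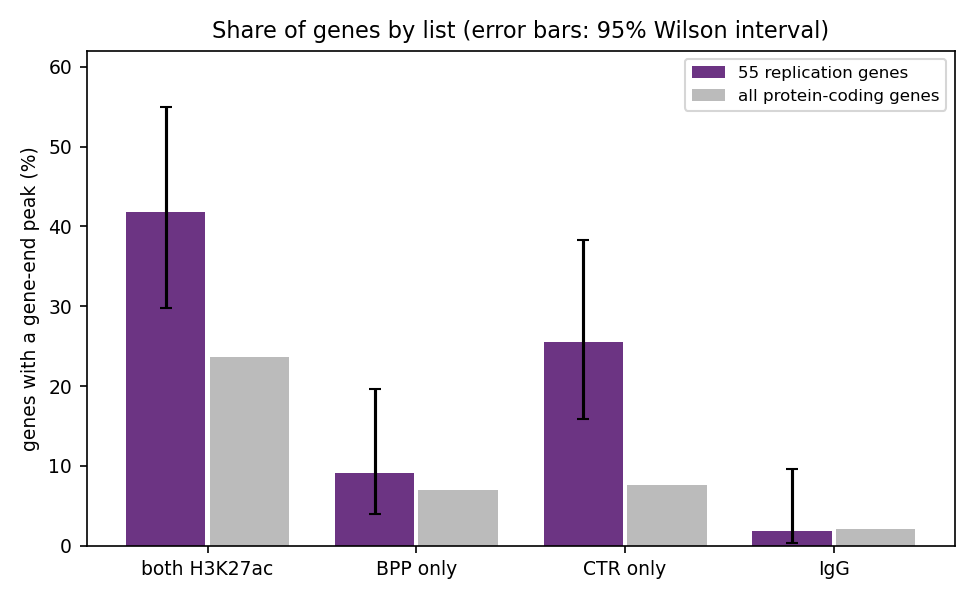
Share of genes with a gene-end peak (vertical axis, percent) in both H3K27ac lists, in BPP only, in CTR only and in IgG, for the 55 replication genes (purple, with 95% Wilson intervals) and for 19974 protein-coding genes (grey). The replication genes reach 25.5% in the CTR-only class against 7.57% of all genes, while their BPP-only share of 9.09% lies near the 7.03% of all genes.

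The CTR-only peaks were mostly weak ones. Their median −log10 q was 6.59 and their median fold 4.61, against 10.1 and 5.42 for the CTR peaks of the 23 genes marked in both lists. CTR-only protein-coding genes as a whole had medians of 7.07 and 4.80. When each list was limited to its 5000 peaks of highest −log10 p, the CTR-only replication genes numbered 6 (10.9%; all genes 5.84%) and the BPP-only ones 4 (7.27%; all genes 4.40%), and 3 of the 14 CTR-only genes (POLE2, RFC5 and LIG1) stayed in that class. With peaks of fold 5 or more, 8 were CTR only (14.55%; all genes 6.35%) and 4 BPP only (7.27%; all genes 4.17%), and 5 of the 14 stayed.

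**Figure D2:**
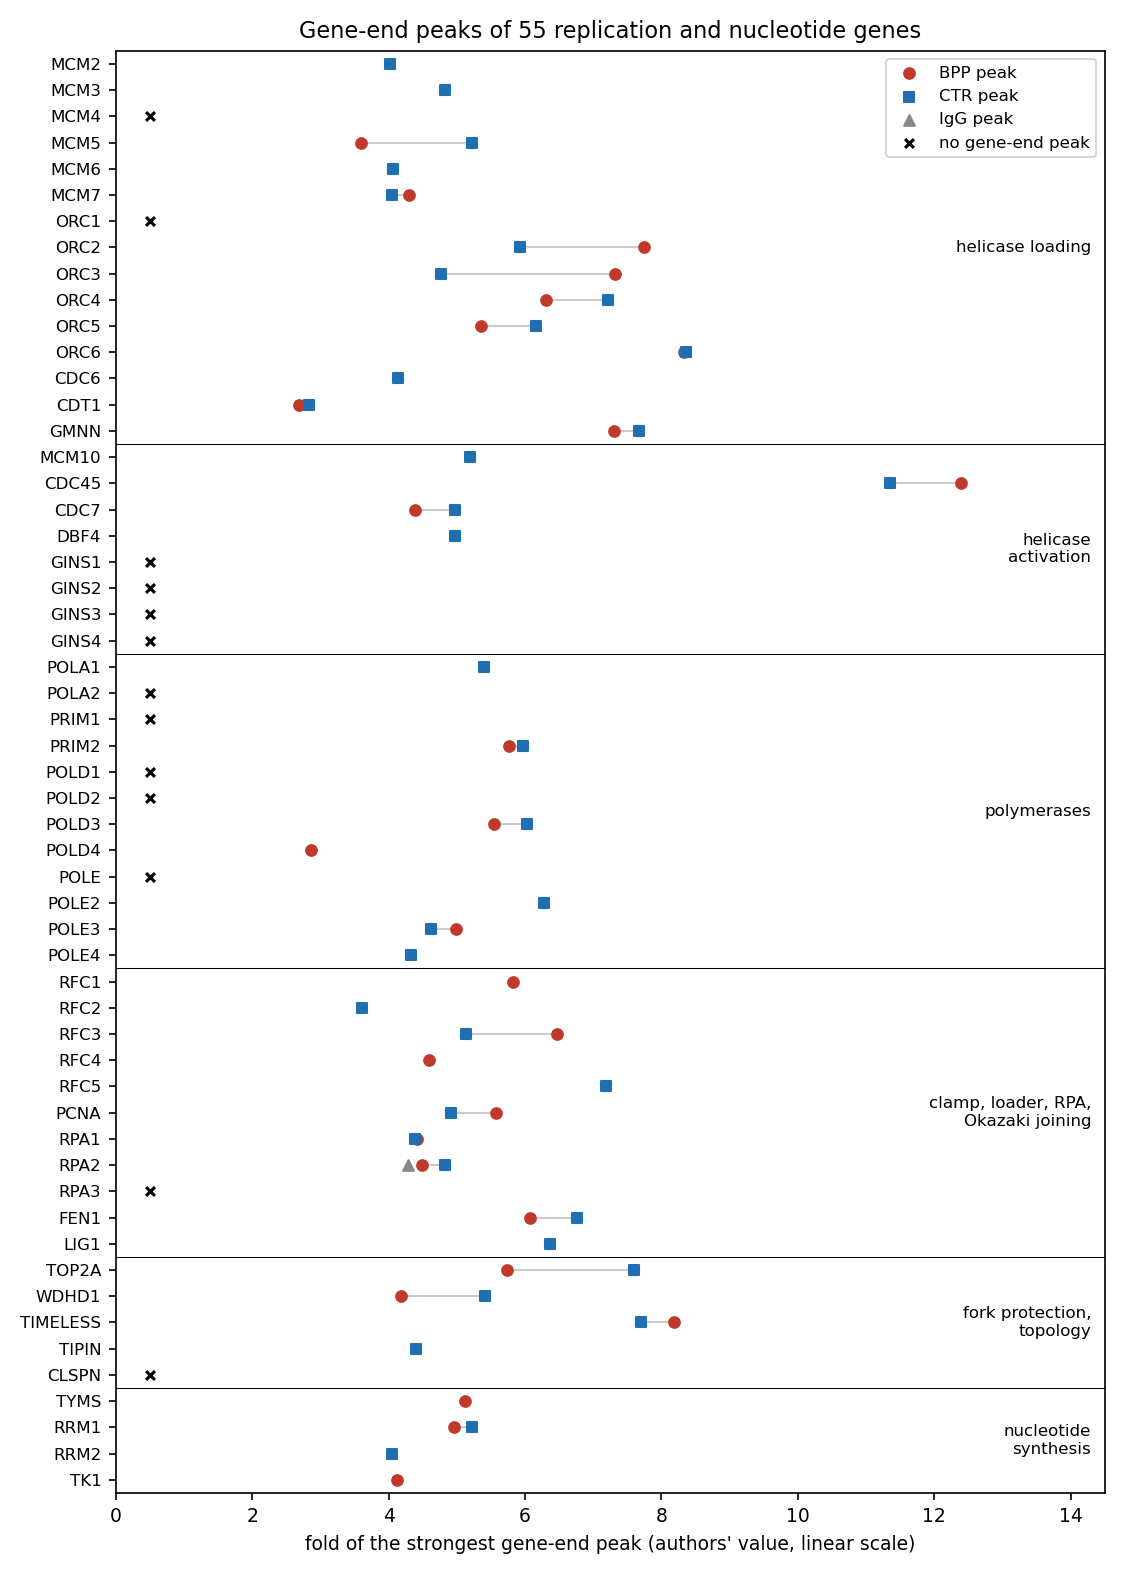
Fold of the strongest gene-end peak (horizontal axis, authors' linear value) of each of the 55 genes, by role; red circles are BPP, blue squares CTR, the grey triangle IgG, and crosses mark genes with no gene-end peak. CDC45 stands alone above 11 in both lists, and most genes with a single blue square lie below 5.5.

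A table of promoters from RefSeq, on build GRCh38.p14, gave the start site and strand of 49 of the 55 genes; GINS4, MCM4, MCM5, POLD3, RPA2 and RPA3 had no entry. Where a gene had several, as 13 of the 49 did, the one listed first was used. A start-site peak overlaps a window of 1 kb on either side of that start. In BPP 24 of the 49 had one (all 15812 genes with an entry 30.2%) and in CTR 33 (all genes 32.1%). Both lists marked 19 (all genes 24.1%), BPP alone 5 (all genes 6.1%) and CTR alone 14 (all genes 7.93%). The 14 CTR-only and the 5 BPP-only genes were the same by start sites as by gene ends. IgG marked none of the 49, which allows a share of up to 6.12% taken as 3 counts of 49, or 7.27% by the Wilson interval (all genes 1.35%). The summit of the strongest start-site peak lay a median of 137.5 bp downstream of the start in BPP (n = 24) and 104 bp downstream in CTR (n = 33). For all genes the medians were 79 and 99 bp. With every listed start counted, 20 genes were marked in both lists, 6 in BPP only and 13 in CTR only (all genes 25.9%, 6.43% and 8.08%), as TIPIN became marked in both and POLD1 in BPP only.

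**Figure D3:**
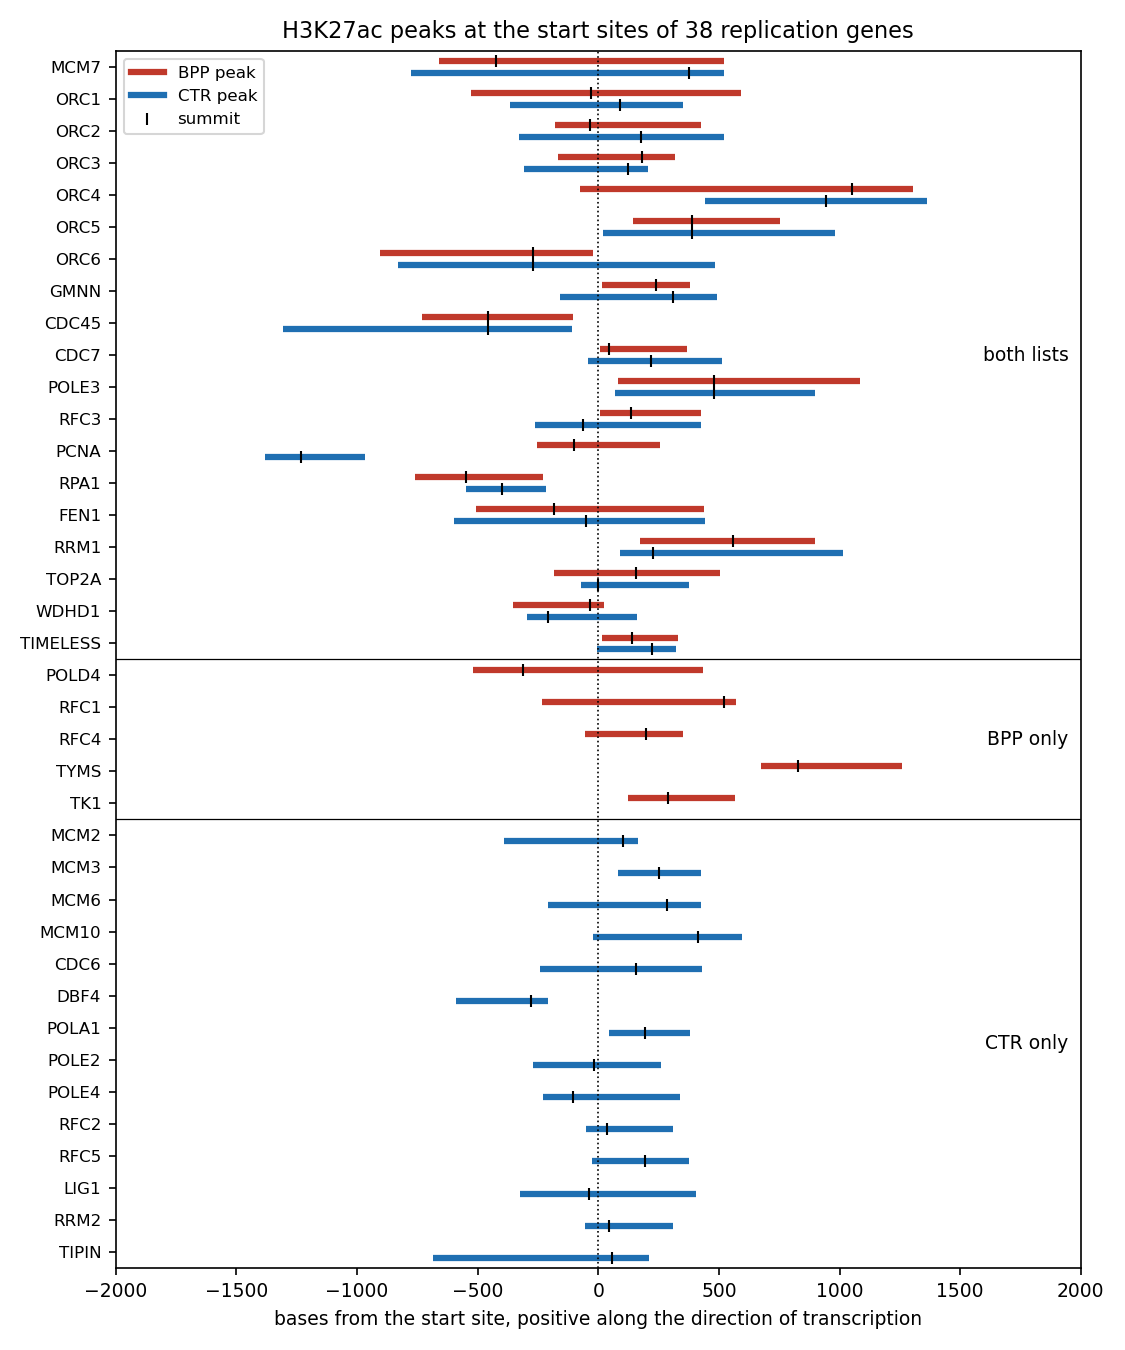
H3K27ac peaks at the start sites of the 38 replication genes that have one, as distance from the start (horizontal axis, bases, positive in the direction of transcription). Bars are peaks (red BPP, blue CTR) and ticks are summits; most bars cover or touch the start, and in PCNA the bars of the lists do not overlap.

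Of the 23 genes marked in both lists, 22 had BPP and CTR gene-end peaks that overlapped each other (40.0% of the 55; all genes 22.4%). Their summits lay 0 to 801 bp apart, with a median of 153.5 bp, and 15 of the 22 pairs lay within 200 bp. PCNA was the exception and is described below.

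In the sequences that follow, each promoter runs 5′ to 3′ on the strand of its gene, from 250 bases before the start site to 50 bases from it, on GRCh38.p14. Capitals mark matches on either strand to any of 6 motifs: E2F (TTTCCCGC, TTTCGCGC, TTTGCCGC or TTTGGCGC), the CCAAT box (CCAAT), the GC box (GGGCGG), ETS (CCGGAAGT), NRF1 (GCATGCGC) and the cell cycle element CHR (TTTGAA). The promoters shown are those of highest −log10 q in each class whose peak overlaps the promoter.

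Helicase loading was the role with the most genes, 15. Of these 9 had a gene-end peak in BPP (all genes 30.6%) and 13 in CTR (all genes 31.2%). In both lists 9 were marked (all genes 23.6%), in CTR only 4 (all genes 7.57%) and in BPP only none (all genes 7.03%). ORC6, a subunit of the origin recognition complex, had the strongest peak of this role in both lists. It was chr16:46688753-46689638 in BPP (fold 8.33, −log10 q 30.5) and chr16:46688830-46690141 in CTR (fold 8.36, −log10 q 29.1), with the summit at the same base, 270 bp upstream of the ORC6 start. VPS35, a gene of endosomal sorting, starts on the opposite strand 481 bp away, and with peaks given only to the nearest gene end ORC6 lost its mark. Its promoter holds a pair of CCAAT boxes and overlapping NRF1 matches on both strands.

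ORC6 (chr16:46689409-46689708, plus strand): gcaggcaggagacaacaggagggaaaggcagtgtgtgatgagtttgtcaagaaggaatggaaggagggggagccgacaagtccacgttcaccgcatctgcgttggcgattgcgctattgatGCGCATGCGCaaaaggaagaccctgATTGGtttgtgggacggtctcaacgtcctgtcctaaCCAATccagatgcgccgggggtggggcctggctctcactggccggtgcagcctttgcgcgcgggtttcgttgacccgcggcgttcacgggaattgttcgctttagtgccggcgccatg

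ORC2 to ORC5 were marked at their starts in both lists as well. ORC2 had folds of 7.74 in BPP and 5.93 in CTR, and ORC3 7.31 and 4.77. ORC4 had folds of 6.31 and 7.21, with summits 1052 and 945 bp downstream of the start listed first and close to another listed ORC4 start. ORC5 had folds of 5.36 and 6.16, with the summits of both peaks 390 bp downstream of the start. The −log10 q was 21.8 and 12.7 for ORC2, 17.5 and 7.39 for ORC3, 15.6 and 18.6 for ORC4, and 6.95 and 10.1 for ORC5, BPP first. ORC1, the largest subunit, counted as unmarked at its gene ends, since its RefSeq start lies 5080 bp inside the gene span. A peak of each list covered that start, chr1:52403833-52404951 in BPP (fold 4.95) and chr1:52404070-52404789 in CTR (fold 4.81). The start of PRPF38A, a splicing factor gene, lies 179 bp away on the other strand. By start sites every ORC gene was thus marked in both lists.

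The ring subunits of the helicase were split. MCM2, MCM3 and MCM6 had a start-site peak in CTR only, MCM5 and MCM7 had gene-end peaks in both, and MCM4 had no peak in any list at its ends or over its span. The CTR peak of MCM2 (chr3:127598022-127598576) had fold 4.02 and −log10 q 6.82, and the closest BPP peak lay 8.29 kb away. That of MCM3 (chr6:52284315-52284659) had fold 4.83 and −log10 q 4.61, with the closest BPP peak 135 kb away. That of MCM6 (chr2:135876016-135876650) had fold 4.06 and −log10 q 3.51, with the closest BPP peak 108 kb away. These are peaks of the lower ranks: the MCM2 peak ranked within the top 53.7% of the CTR list, the MCM3 peak within 82.0% and the MCM6 peak within 95.3%. MCM3 and MCM6 did not reach a −log10 q of 5. At MCM7, whose start lies 246 bp from that of AP4M1 on the other strand, broad peaks of 1186 bp in BPP and 1302 bp in CTR covered both starts, with folds of 4.30 and 4.05. At MCM5 the folds were 3.59 in BPP and 5.22 in CTR.

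The loading factors CDC6 and CDT1 and the CDT1 inhibitor geminin (GMNN) each differed in their marks. CDC6 had a start-site peak in CTR only (chr17:40287639-40288308, fold 4.13, −log10 q 5.55), and the nearest BPP peak lay 109 kb away. CDT1 counted as marked in both lists, but its peaks (folds 2.68 and 2.83) lay at the far end of the gene, next to APRT, 6967 and 6671 bp downstream of its start; its start had no peak in either list. GMNN had peaks of 364 bp in BPP and 651 bp in CTR with summits 238 and 310 bp downstream of its start, with folds of 7.30 and 7.67 and −log10 q of 14.8 and 19.7.

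Helicase activation had the strongest peak of all 55 genes, beside genes with none. Of its 8 genes both lists marked 2 (all genes 23.6%), CTR alone 2 (all genes 7.57%) and neither 4 (all genes 12346 of 19974). CDC45, which joins the MCM ring in the active helicase, shared its peak with UFD1. The peak chr22:19479190-19479814 in BPP reached fold 12.4 and −log10 q 158, and ranked within the top 0.213% of the list. In CTR chr22:19478613-19479812 reached fold 11.3 and −log10 q 144, within the top 0.344%. The summits lay 457 and 456 bp upstream of the CDC45 start listed first and next to another listed CDC45 start. Its promoter carries 4 CCAAT boxes and a GC box.

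CDC45 (chr22:19479670-19479969, plus strand): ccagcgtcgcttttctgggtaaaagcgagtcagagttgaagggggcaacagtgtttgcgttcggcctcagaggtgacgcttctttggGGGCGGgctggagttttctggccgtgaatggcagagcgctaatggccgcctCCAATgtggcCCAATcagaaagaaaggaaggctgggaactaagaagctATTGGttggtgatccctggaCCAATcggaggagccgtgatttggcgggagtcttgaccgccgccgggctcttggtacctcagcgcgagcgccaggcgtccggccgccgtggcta

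CDC7, the kinase that starts origin firing, had a modest peak in both lists, with folds of 4.38 and 4.97 and −log10 q of 5.56 and 6.85. DBF4, the regulatory subunit of that kinase, had a peak in CTR only (chr7:87875903-87876284, fold 4.97, −log10 q 7.16). It lay 280 bp upstream of the DBF4 start, nearer to the end of SLC25A40, whose start is 133 bp away on the other strand. MCM10, which acts as the helicase is switched on, had a CTR peak at its start (chr10:13161537-13162152, fold 5.19, −log10 q 6.93). The BPP list held none there. A separate BPP peak lay inside MCM10, with its summit 6295 bp downstream of the start (fold 4.72, −log10 q 6.74). GINS1, GINS2, GINS3 and GINS4, the subunits of the GINS complex, had no peak of any list at their ends or inside.

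Of the 12 polymerase genes 3 were marked in both lists, 1 in BPP only, 3 in CTR only and 5 in neither. Over all protein-coding genes 12346 of 19974 were marked in neither. POLA1, the catalytic subunit of polymerase alpha, had a CTR peak at its start (chrX:24693963-24694300, fold 5.40, −log10 q 5.72), and the nearest BPP peak was 639 kb away. POLE2, a subunit of polymerase epsilon, had a CTR peak (chr14:49687955-49688486, fold 6.28, −log10 q 9.89) over its start. POLE4 had one too (chr2:74958413-74958980, fold 4.33, −log10 q 4.39). POLE3 was marked in both lists, with folds of 4.99 and 4.62, and its start lies 2 bp from that of C9orf43 on the other strand. POLD3 was marked in both with folds of 5.54 and 6.03. PRIM2, the large primase subunit, was marked in both with folds of 5.76 and 5.98, but at a gene end 93127 bp upstream of its RefSeq start in BPP and next to RAB23. Near-identical copies of PRIM2 sequence exist, which leaves read placement there uncertain.

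POLD4, the smallest subunit of polymerase delta, was the polymerase gene marked in BPP only (chr11:67353164-67354114, fold 2.87, −log10 q 7.65). The nearest CTR peak was 1.40 kb away, and with windows of 2 kb POLD4 counted as marked in both. Its promoter holds 3 CCAAT boxes and 4 GC boxes.

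POLD4 (chr11:67353547-67353846, minus strand): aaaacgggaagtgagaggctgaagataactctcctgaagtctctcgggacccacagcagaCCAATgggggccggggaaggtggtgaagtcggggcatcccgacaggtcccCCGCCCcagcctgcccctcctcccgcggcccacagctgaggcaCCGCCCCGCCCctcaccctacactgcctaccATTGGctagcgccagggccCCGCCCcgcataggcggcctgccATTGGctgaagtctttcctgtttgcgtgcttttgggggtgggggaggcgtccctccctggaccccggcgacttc

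POLA2, PRIM1, POLD1, POLD2 and POLE, among them the catalytic subunits of primase and of polymerases delta and epsilon, had no gene-end peak in any list. POLE had peaks of both lists inside the gene, the nearest with summits 2537 bp downstream of its start in BPP (fold 3.57) and 2500 bp in CTR (fold 3.66). With windows of 2 kb POLE counted as marked in both. POLD1 had 3 inside peaks in BPP, with folds of 3.28 to 3.65, and none in CTR. One of these lay within 1 kb of another listed POLD1 start, 14529 bp from the first. POLD2 had no peak at all.

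The clamp, the clamp loader, the single-strand binding protein RPA and the enzymes that join Okazaki fragments made up 11 genes. Both lists marked 5 (all genes 23.6%), BPP alone 2 (all genes 7.03%) and CTR alone 3 (all genes 7.57%). Neither list marked the remaining 1 (all genes 12346 of 19974). Each of the lists lacked some clamp loader genes. RFC3 was marked in both (folds 6.48 and 5.13), RFC1 and RFC4 in BPP only, and RFC2 and RFC5 in CTR only. RFC1, the large subunit, had a BPP peak at its start (fold 5.01, −log10 q 5.48) and a stronger one at its far end, close to WDR19 (fold 5.83, −log10 q 8.41). RFC4 had a BPP peak (chr3:186806130-186806538, fold 4.60, −log10 q 5.95), and the closest CTR peak was 21.8 kb away. RFC2 had a CTR peak of fold 3.61 and −log10 q 4.48. RFC5 had the strongest peak of the clamp loader in either list (chr12:118016677-118017081 in CTR, fold 7.19, −log10 q 11.9), with the nearest BPP peak 36.0 kb away.

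RFC4 (chr3:186806433-186806732, minus strand): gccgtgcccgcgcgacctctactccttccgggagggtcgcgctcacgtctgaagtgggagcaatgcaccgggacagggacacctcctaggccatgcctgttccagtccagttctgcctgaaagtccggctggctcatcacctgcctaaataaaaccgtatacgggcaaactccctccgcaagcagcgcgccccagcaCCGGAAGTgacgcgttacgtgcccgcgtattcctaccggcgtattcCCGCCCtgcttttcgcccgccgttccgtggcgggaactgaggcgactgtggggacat
RFC5 (chr12:118016453-118016752, plus strand): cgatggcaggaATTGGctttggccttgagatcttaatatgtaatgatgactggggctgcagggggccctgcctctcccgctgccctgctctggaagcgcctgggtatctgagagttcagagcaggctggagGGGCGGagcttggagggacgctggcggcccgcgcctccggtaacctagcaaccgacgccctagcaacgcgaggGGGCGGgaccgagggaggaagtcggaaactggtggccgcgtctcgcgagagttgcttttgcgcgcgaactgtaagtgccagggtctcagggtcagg

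LIG1, the ligase that seals Okazaki fragments, had the highest −log10 q of the CTR-only genes (chr19:48169939-48170667, fold 6.36, −log10 q 17.4, top 11.8% of the CTR list). Its nearest BPP peak was 14.7 kb away, inside the gene (fold 3.65, −log10 q 4.85), and the CTR peak is also within 1 kb of an end of ZSWIM9. In the LIG1 promoter an E2F match and a GC box overlap. FEN1, the flap nuclease of the same pathway, was marked strongly in both lists (chr11:61792405-61793349 in BPP, fold 6.08, −log10 q 21.4; chr11:61792311-61793354 in CTR, fold 6.76, −log10 q 27.7). Its start lies 312 bp from that of TMEM258 on the other strand, and its promoter holds none of the motifs searched.

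LIG1 (chr19:48170295-48170594, minus strand): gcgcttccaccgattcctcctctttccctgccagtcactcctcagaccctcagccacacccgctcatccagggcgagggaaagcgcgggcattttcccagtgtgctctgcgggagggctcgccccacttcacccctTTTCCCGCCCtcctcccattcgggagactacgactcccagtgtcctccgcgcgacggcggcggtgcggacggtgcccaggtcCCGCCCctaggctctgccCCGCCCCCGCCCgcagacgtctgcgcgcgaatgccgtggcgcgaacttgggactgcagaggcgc
FEN1 (chr11:61792661-61792960, plus strand): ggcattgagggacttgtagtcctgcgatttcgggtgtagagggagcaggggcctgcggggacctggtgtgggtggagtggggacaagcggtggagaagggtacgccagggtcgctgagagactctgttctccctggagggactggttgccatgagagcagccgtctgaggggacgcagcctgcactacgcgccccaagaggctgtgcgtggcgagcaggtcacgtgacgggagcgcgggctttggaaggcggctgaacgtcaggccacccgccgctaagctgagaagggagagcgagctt

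PCNA, the sliding clamp, had start-site peaks in different places. The BPP peak (chr20:5126365-5126877, fold 5.57, −log10 q 11.5) covered the PCNA start. The CTR peak (chr20:5127591-5128005, fold 4.92, −log10 q 8.63) lay 1233 bp upstream, beyond the start of CDS2, and with windows of 500 bp PCNA counted as BPP only. A stronger peak lay inside the gene in both lists, over another PCNA start of the promoter table (summits 6844 and 6928 bp downstream of the first, folds 7.20 and 6.26, −log10 q 17.3 and 12.6). RPA1 was marked in both with folds of 4.42 and 4.39, upstream of its start and towards SMYD4. RPA2 was marked in both with folds of 4.48 and 4.83, and an IgG peak (chr1:27913513-27914056, fold 4.29, −log10 q 2.75) lay in the same window without overlapping either. RPA3 had no gene-end peak and had inside peaks of both lists near UMAD1, with folds of 5.85 and 5.37.

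Of the 5 genes of fork protection and topology, both lists marked 3 (all genes 23.6%) and CTR alone 1 (all genes 7.57%). Neither list marked the remaining 1 (all genes 12346 of 19974). TIMELESS, which travels with the fork together with TIPIN, had narrow strong peaks of 316 and 330 bp (folds 8.18 and 7.70, −log10 q 20.4 and 18.8). TIPIN itself had a start-site peak in CTR only (chr15:66386507-66387404, fold 4.40, −log10 q 6.90), which also reached MAP2K1, whose start is 195 bp away. Inside peaks of both lists (folds 4.83 and 4.18) lay next to another listed TIPIN start, 30032 bp from the first. TOP2A, the topoisomerase of replicating and mitotic cells, had folds of 5.74 in BPP and 7.60 in CTR and −log10 q of 13.01 and 17.2. WDHD1, which links polymerase alpha to the helicase, had folds of 4.18 and 5.42. CLSPN, the checkpoint adaptor claspin, had no peak in any list at its ends or inside.

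Of the 4 nucleotide synthesis genes, RRM1 was marked in both lists (all genes 23.6%) and RRM2 in CTR only (all genes 7.57%). TYMS and TK1 were marked in BPP only (all genes 7.03%). The subunits of ribonucleotide reductase were thus in different classes. RRM1 had folds of 4.95 in BPP and 5.22 in CTR and −log10 q of 10.4 and 12.0. RRM2 had a CTR peak at its start (chr2:10122684-10123047, fold 4.04, −log10 q 6.37), and the nearest BPP peak was 74.6 kb away. TYMS, thymidylate synthase, had a BPP peak (chr18:658329-658914, fold 5.12, −log10 q 10.4) with its summit 826 bp downstream of the start and the nearest CTR peak 154 kb away. It was the BPP-only gene that stayed in its class among the top 5000 peaks, and with windows of 500 bp it was unmarked. TK1, thymidine kinase 1, had a BPP peak of fold 4.12 and −log10 q 9.49 (chr17:78186636-78187080), near the start of AFMID 158 bp away.

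E2F matches were common in these promoters. Of the 49 promoters 20 held one (40.8%, 28.2 to 54.8), against 703 of 15812 promoters of protein-coding genes (4.45%). Over all listed promoters of each gene, 23 of the 49 genes held one (46.9%; all genes 5.41%). By start-site class, 8 of the 14 CTR-only genes held one, 7 of the 11 genes marked in neither list, 4 of the 19 marked in both and 1 of the 5 BPP-only genes. Over all genes the shares in those classes were 6.06%, 3.19%, 6.89% and 5.39%. CCAAT boxes were in 28 of the 49 (57.1%, 43.3 to 70.0; all promoters 36.3%) and GC boxes in 36 (73.5%, 59.7 to 83.8; all promoters 58.5%). NRF1 (4 of 49, 8.16%; all promoters 4.26%), ETS (3 of 49, 6.12%; all promoters 6.20%) and CHR (3 of 49, 6.12%; all promoters 12.1%) were rare. The median GC content was 65.7% for the replication genes and 62.7% for all promoters. A match is a stretch of letters and not evidence that a factor binds there, and the window does not reach beyond 250 bases upstream.

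**Figure D4:**
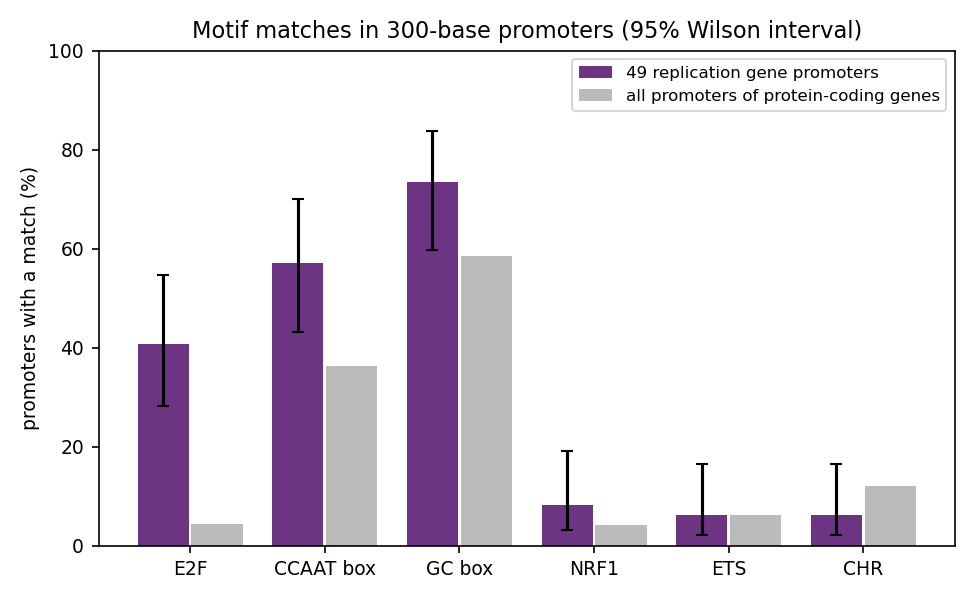
Share of promoters with at least 1 match to each motif (vertical axis, percent) among 49 replication gene promoters (purple, 95% Wilson intervals) and 15812 promoters of protein-coding genes (grey). The widest gap is at E2F, 40.8% against 4.45%; ETS lies level at 6.12% and 6.20%.

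The E2F matches are shown within 30 bases of the gene strand, 5′ to 3′, on GRCh38.p14, with the match in capitals (written as it reads on that strand). Where a promoter holds several, the match nearest the start is given. The CTR-only genes come first.

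MCM2 (chr3:127598402-127598431, plus strand): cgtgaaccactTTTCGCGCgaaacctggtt
MCM3 (chr6:52284728-52284757, minus strand): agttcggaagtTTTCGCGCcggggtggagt
MCM6 (chr2:135876511-135876540, minus strand): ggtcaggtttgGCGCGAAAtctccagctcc
CDC6 (chr17:40287875-40287904, plus strand): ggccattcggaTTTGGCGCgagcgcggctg
POLA1 (chrX:24693770-24693799, plus strand): gtcatcacaggGCGCCAAAcgcgcgtccgc
POLE2 (chr14:49688201-49688230, minus strand): ctgcggcggtgGCGCCAAAtcgcaaatatg
POLE4 (chr2:74958601-74958630, plus strand): ctccagcccgcGCGGGAAAgggcctgcgcc
LIG1 (chr19:48170440-48170469, minus strand): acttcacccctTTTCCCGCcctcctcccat

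The genes with no start-site peak in either list that hold a match were CDT1, 3 of the GINS genes, POLA2, POLE and CLSPN. The matches nearest their starts lay from 53 bases upstream for POLA2 (first base at -53) to just past the start for GINS1 (first base at 6). Among the CTR-only genes those of POLA1 (-137), LIG1 (-114) and MCM6 (-86) lay farther upstream. Those of MCM2 (3), MCM3 (-4), CDC6 (8), POLE2 (-5) and POLE4 (-31) lay as close to the start as in the unmarked genes.

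CDT1 (chr16:88803743-88803772, plus strand): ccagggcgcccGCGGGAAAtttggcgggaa
GINS1 (chr20:25407667-25407696, plus strand): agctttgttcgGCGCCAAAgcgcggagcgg
GINS2 (chr16:85688967-85688996, minus strand): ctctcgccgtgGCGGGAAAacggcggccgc
GINS3 (chr16:58392455-58392484, plus strand): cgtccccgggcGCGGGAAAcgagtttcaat
POLA2 (chr11:65261898-65261927, plus strand): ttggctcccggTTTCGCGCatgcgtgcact
POLE (chr12:132687342-132687371, minus strand): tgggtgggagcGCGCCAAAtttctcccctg
CLSPN (chr1:35769965-35769994, minus strand): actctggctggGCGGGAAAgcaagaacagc

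The genes marked at the start in both lists that hold a match were MCM7, ORC3, RFC3 and PCNA, and the BPP-only gene was TYMS. Counted on both strands, with overlapping matches counted separately, MCM6 held 4 matches, and MCM2, MCM3 and MCM7 held 2 each. The 2 of MCM2 share bases and lie in the window shown.

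MCM7 (chr7:100101388-100101417, minus strand): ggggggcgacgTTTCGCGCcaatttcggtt
ORC3 (chr6:87590112-87590141, plus strand): cgcgagggcgcGCGGGAAAtcccgagtgca
RFC3 (chr13:33818083-33818112, plus strand): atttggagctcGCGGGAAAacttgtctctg
PCNA (chr20:5126663-5126692, minus strand): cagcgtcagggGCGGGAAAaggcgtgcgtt
TYMS (chr18:657603-657632, plus strand): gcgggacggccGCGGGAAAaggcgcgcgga

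Another feature was a close neighbour on the opposite strand. Of the 49 genes 14 had the start of another protein-coding gene within 1 kb on the other strand (28.6%), against 12.5% of all genes with an entry. Both lists marked 10 of these 14, or 71.4%, against 51.7% of the 1975 protein-coding genes with such a neighbour. The 10 were MCM7, ORC1, ORC3, ORC4, ORC6, POLE3, PCNA, RPA1, FEN1 and WDHD1. DBF4 and TIPIN were CTR only, TK1 was BPP only, and POLE was unmarked. A peak between such starts cannot be given to one of the genes. The count of neighbours used only the first listed starts of genes with an entry. It leaves out MCM2, CDC45 and LIG1, whose peaks also lay within 1 kb of an end of TPRA1, UFD1 and ZSWIM9. When each peak was given only to the nearest gene end, the genes marked in both lists numbered 13 in place of 23. The BPP-only genes were then 9 in place of 5 (16.4%, all genes 7.11%). The CTR-only genes numbered 14 (25.5%, all genes 7.60%), of which 13 were the same genes.

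Away from their ends, 19 of the 55 genes had a peak inside the gene span in BPP (34.5%; all genes 23.0%), 15 in CTR (27.3%; all genes 17.8%) and 4 in IgG (7.27%; all genes 12.8%). The median length of the replication genes was 33.1 kb, against 24.2 kb over all genes. Per Mb of gene interior they held 9.71 BPP, 7.84 CTR and 2.61 IgG peaks, against 6.82, 4.73 and 2.66 over all genes. These densities pool the whole interior, 2.68 Mb and 1254 Mb, so long genes weigh most and the median lengths do not describe them. Inside peaks of ORC1, PCNA, TIPIN and POLD1 lay at or near a listed start. In 11 genes a BPP and a CTR peak overlapped inside the span: MCM5, ORC1, ORC4, CDC45, POLE, RFC1, PCNA, RPA1, RPA3, WDHD1 and TIPIN. The MCM5 peak had the highest −log10 q of the inside peaks in BPP (chr22:35425854-35426989, fold 5.26, −log10 q 22.03). In CTR the MCM5 peak (chr22:35426058-35426655, fold 4.03, −log10 q 9.67) came after those of PCNA (12.6) and ORC4 (10.2). WDHD1 had a peak with summits 22114 and 22103 bp downstream of its start in both lists, with folds of 6.15 and 5.57, higher than those at its start. CDC45 had 2 inside peaks in each list, overlapping pairwise, with folds of 3.43 to 4.18. The inside IgG peaks were in MCM5 (1), POLA1 (1), PRIM2 (2) and RRM2 (3), with −log10 q of 2.20 to 2.97.

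The other 80 genes of replication control, nucleotide synthesis and chromatin assembly that were followed alongside were marked about as often in one list as in the other. Of these, 41 had a gene-end peak in BPP (51.2%, 40.5 to 61.9, against 30.6% of all genes). In CTR 40 had one (interval 39.3 to 60.7, against 31.2% of all genes). The lists shared 29 (all genes 23.6%). BPP alone marked 12 (all genes 7.03%), CTR alone marked 11 (all genes 7.57%), and 28 were unmarked. IgG marked 1, PPAT (all genes 2.13%), which both H3K27ac lists marked as well. DUT, the dUTPase that keeps uracil out of DNA, had the highest fold of these genes in both lists, with folds of 11.3 in BPP and 8.04 in CTR and −log10 q of 53.9 and 29.7. RIF1, a regulator of replication timing, had folds of 9.61 and 7.14, GART, a purine synthesis enzyme whose peak also reaches SON, 7.20 and 7.66, and the nucleotide kinase CMPK1 7.59 and 4.59. In BPP only were DCTD, the deoxycytidylate deaminase that feeds thymidylate synthase (fold 4.92), CHTF8 (fold 4.67), NME1 (fold 4.90) and MCM8 (fold 5.31). In CTR only were E2F6, a repressor of the E2F family (fold 7.75, −log10 q 23.3), the mitochondrial kinase DGUOK (fold 6.40), the histone chaperone ASF1A (fold 4.82) and PRPS1 (fold 6.40). The 8 E2F genes were looked at together after their values were seen. E2F4 and E2F6 were CTR only, E2F3 was BPP only and the other 5 had no gene-end peak in either H3K27ac list. That is near the share of all protein-coding genes with none in either, 12346 of 19974.

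**Figure D5:**
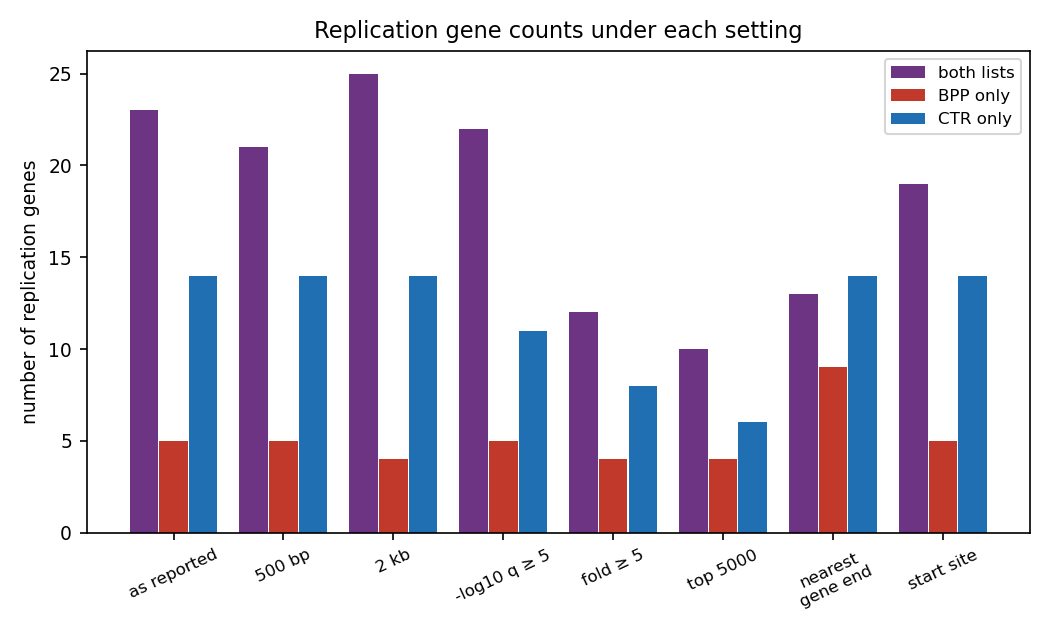
Number of replication genes (vertical axis) with a gene-end peak in both H3K27ac lists (purple), in BPP only (red) and in CTR only (blue) as reported and under 7 other settings (horizontal axis). The blue bar exceeds the red one in each setting, by 14 to 5 as reported and by 6 to 4 with the top 5000 peaks, where all protein-coding genes (not drawn) run 1167 to 878.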

How the data were processed

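The authors deposited 1 peak list per library, on build GRCh38.p13 (hg38). The submitters' processing notes name deepTools 3.3.0, Bowtie2 2.4.1 and fastp. How peaks were called, and whether IgG served as a control, is not given in the sources used here. Each row holds a position and the authors' deposited fold (a ratio), −log10 p-value, −log10 q-value and score, equal to the −log10 p times 10 without its decimals. No −log10 p lay below 5. Peaks on chromosome Y were left out. Groups came from the sample titles. Reads per library are unknown, so depth sets no interval here; Wilson intervals cover counting of genes only.

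Gene spans came from NCBI RefSeq (GRCh38.p14, the same chromosome coordinates), and start sites, strands and promoter sequences from the RefSeq promoter table. Peaks of genes were found by overlap of at least 1 bp, counted from 1. Overlaps were tested on simulated data and checked with bedtools 2.31.1. Scripts ran in Python 3.11.15 with pandas 2.3.3, numpy 2.4.6, matplotlib 3.10.9 and scipy 1.17.1.

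The genes, roles, motifs and lists were chosen with earlier results of these data known. Values are given for all genes marked in a single list, the 8 of highest −log10 q per list, those with an IgG peak, those whose peaks did not overlap, and up to 3 more genes of each role, to which ORC1 and POLD1 were added after their values were seen; of the other pathway genes, for the 4 of highest −log10 q in each class. Promoters shown are the 2, 2 and 3 of highest −log10 q marked in BPP only, CTR only and both whose peak overlaps the promoter; the E2F windows were added after the matches were seen. Alternatives were windows of 500 bp and 2 kb, −log10 q of at least 5, fold of at least 5, the top 5000 peaks, the nearest gene end, start sites, and other rules of overlap. Counting every listed start was added after seeing the data.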

Additional observations from a re-analysis of the deposited data

How the results depend on the processing

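No paired analysis was possible because each group had 1 library, and no library could be left out. Of 107 recomputed counts over 10 alternatives, 68 stayed within 1.5 times the reported value. CTR-only replication genes outnumbered BPP-only ones in each of the 8 settings that give both. So did the protein-coding genes as a whole in 7 of the 8, the exception being windows of 2 kb (1535 CTR only, 1693 BPP only); with fold of at least 5 they numbered 1268 and 832, and with the top 5000 peaks 1167 and 878. With fold of at least 5, 16 replication genes had a gene-end peak in BPP, 20 in CTR, 12 in both (all 12 overlapping), 8 in CTR only and 0 in IgG; 6, 4 and 0 had inside peaks in BPP, CTR and IgG. With the top 5000 peaks of each list these were 14, 16, 10 (all 10 overlapping) and 6, with inside peaks in 4 in BPP and 3 in CTR. With −log10 q of at least 5, 8 had inside peaks in CTR and 0 in IgG, and no IgG gene-end peak was left (0). With the nearest gene end, 13 were marked in both (13 overlapping) and 9 in BPP only (16.4%, against 7.11% of all genes). IgG marked 0 with windows of 500 bp, 0 by start sites and 0 by any listed start site. Of the 80 other pathway genes, fold of at least 5 left 19 in BPP, 23 in CTR, 16 in both, 3 in BPP only, 7 in CTR only and 0 in IgG; the top 5000 peaks left 19, 22, 15, 4, 7 and 0. In IgG there were 2 with windows of 2 kb and 0 with −log10 q of at least 5. These filters keep fewer peaks, and a fold of 5 may not be the same cut in BPP and CTR. Under the filters only the CTR-only and BPP-only classes were counted over all protein-coding genes. The fall in the other counts has no background beside it. Depth is unknown, so a missing peak is not an absent mark.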
